A study of Mus musculus with 6 samples.

Results

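The E2F family and the E and A type cyclins were described by the 10 genes E2f1, E2f2, E2f3, E2f4, E2f6, E2f7, E2f8, Ccne1, Ccne2 and Ccna2, chosen by name from a table of 55291 gene symbols. All 10 had an entry and a mean normalized estimated count of at least 10, the minimum for the test. The libraries were made from CD4+ T cells, helper T lymphocytes, of the spleen of naive wild-type C57BL/6 mice, whose age the labels do not give. The cells had been labelled with the dye CFSE and stimulated in culture for 48 h through CD3 and CD28, with 200 U of IL-2. Added to the medium was either 5 mM itaconate (3 libraries) or 5 mM NaCl (3 libraries); itaconate is a metabolite of activated macrophages that derives from aconitate. In the table the control columns are coded NAC, which was taken to mean NaCl because the labels name no further condition. The labels do not say whether the libraries came from separate mice, pooled mice or separate cultures, so p-values measure the spread between these libraries, which may be technical.

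E2F proteins are the transcription factors that switch on the genes of DNA replication when a cell leaves G1. The retinoblastoma (pocket) proteins hold them in check until cyclin-dependent kinases, first with D type and then with E type cyclins, phosphorylate the pocket proteins. E2F1, E2F2 and E2F3 are classed as activators, E2F4 as a repressor that works with pocket proteins, E2F6 as a repressor that does not bind them, and E2F7 and E2F8 as atypical repressors without a dimer partner that shut E2F targets down later in S phase. Cyclin E1 and E2 drive entry into S phase with CDK2, and cyclin A2 serves CDK2 in S phase and CDK1 in G2. Resting T cells hold this system off, and stimulation through the T cell receptor with IL-2 turns it on.

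With itaconate, the transcripts of E2f2, E2f7, E2f8, Ccne1 and Ccna2 rose, that of E2f4 fell, and those of E2f1, E2f3, E2f6 and Ccne2 did not pass the test. The largest rise was that of Ccna2, at 2.31-fold, and E2f4 was at 0.726 of its NaCl level. Thus 5 of the 10 genes were called higher, where 18.2% of the 13180 tested genes were, and 1 lower, where 17.8% were (limma on log2(value + 1), Benjamini-Hochberg adjusted p under 0.05 over all tested genes). In either direction 6 of 10 were called, against 36.0% of all tested genes. All 10 had a mean of at least 100. Of the 10017 genes tested at that minimum, a larger share was called, 4228, with 2181 higher and 2047 lower. The 2 groups of libraries did not overlap for 7 of 10, against 48.4% of all tested genes. The 10 genes were chosen with earlier results of these data known, so these counts are not an independent test. In bulk RNA, a larger share of cells in S and G2 phase and more transcript per cell cannot be told apart.

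**Figure D1:**
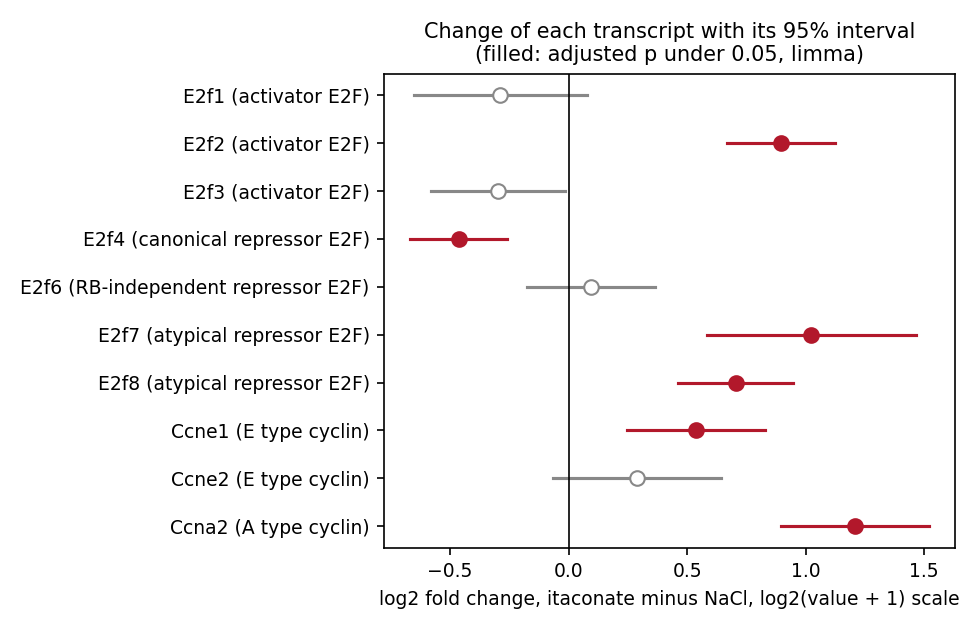
The log2 fold change of each of the 10 transcripts (x axis, itaconate minus NaCl, on the log2(value + 1) scale) is drawn with its 95% interval from limma, and filled points passed an adjusted p of 0.05. E2f2, E2f7, E2f8, Ccne1 and Ccna2 lie to the right of 0 and E2f4 to the left, while the open points of E2f1, E2f3, E2f6 and Ccne2 did not pass.

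The estimated reads per library ran from 20074299 to 24144999. The median log2 difference over all tested genes was close to 0 under each scaling tried (−0.0041 to 0.013). Such scaling brings the libraries to a common level, so this median is no check of the data. The labelled cell type showed in its markers: Cd3d, Cd3e, Cd3g, Cd4 and Trac summed to between 33042 and 34652 in the itaconate libraries and between 27754 and 32122 in the NaCl libraries. B cell markers summed to 173 to 303 and 224 to 304, and the markers Cd8a and Cd8b1 of CD8 T cells to 308 to 365 and 363 to 408. The sum of the 5 macrophage and monocyte markers was higher with itaconate (86.7 to 159 against 44.9 to 66.3), with Cd68 its main source. Only 1 of the 5, Cd68, was above the minimum, and Lyz2 was at 2.04 or less in every library. The neutrophil list was lower (15.0 to 30.8 against 34.2 to 64.4), with S100a8 and S100a9 at 0 and Ly6g its source. Dendritic cell markers (20.6 to 55.9 and 24.5 to 48.2) and NK cell markers (9.67 to 24.6 and 11.2 to 16.3) overlapped between the groups. The part of these other cells in the results below was not tested.

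E2F genes are known to be regulated by E2F proteins themselves, so the promoter windows in RefSeq's GRCm38.p6 annotation (250 bases before to 50 after each start) were searched on both strands. The E2F site was spelled TTTGGCGC, TTTGCCGC, TTTCGCGC or TTTCCCGC, and the CHR, the element that MuvB complexes bind in genes of G2 and M phase, TTTGAA; the 2 motifs share no position here. Windows were found for 7 of the 10 genes (9 windows). An E2F spelling was present in 3 of the 9 windows, 1 each of E2f2, E2f3 and E2f7, in 2.26% of all 32851 windows and in 4.05% of the windows of tested genes. A TTTGAA was present in 3 of the 9, 1 each of E2f2, E2f3 and E2f8, in 17.9% of all windows and in 12.2% of those of tested genes. The windows of E2f1, E2f6 and Ccne1 held neither spelling. For E2f1 (− strand) the window, chr2:154569377-154569676, lies wholly inside the gene as placed in GENCODE release M21, where its start is 154569892. The sequence before that start was therefore not searched. The 4 stretches below are shown because they hold matches of E2F genes that rose (E2f2, E2f7, E2f8) and of E2f3, an activator that did not pass the test; the match in the second E2f2 window is not shown. Capitals mark the matches, in whichever strand they were found.
E2f7, chr10:110745201-110745300, + strand: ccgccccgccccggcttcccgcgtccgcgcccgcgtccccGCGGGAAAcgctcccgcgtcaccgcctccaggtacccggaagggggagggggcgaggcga
E2f3, chr13:29986064-29986163, − strand: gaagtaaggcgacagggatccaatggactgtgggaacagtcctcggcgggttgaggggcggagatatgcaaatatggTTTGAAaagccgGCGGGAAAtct
E2f8, chr7:48881597-48881696, − strand: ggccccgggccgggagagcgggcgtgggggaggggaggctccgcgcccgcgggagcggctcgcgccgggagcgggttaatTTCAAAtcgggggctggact
E2f2, chr4:136172294-136172323, + strand: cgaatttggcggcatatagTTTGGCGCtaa
In E2f7 the match, TTTCCCGC on the reverse strand, began 198 bases before the start. In E2f3 the same spelling began 11 bases before the start, with a TTTGAA beginning 23 bases before it, and in E2f8 a reverse TTTGAA began 20 bases before the start. The E2f2 match TTTGGCGC begins at base 40 of the RefSeq transcript, upstream of the gene's start in GENCODE release M21 (136172394). A second E2f2 window held a TTTGAA 31 bases before its start. A match is a run of letters only, and the absence of one says only that these letters are not in the window.

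The activators did not move together. E2f2 (chr4:136172394-136196057), the activator with the highest level here, was at normalized estimated counts of 4133, 4756 and 3842 in itaconate replicates 1, 2 and 3, and at 2110.0, 2179 and 2551 in NaCl replicates 1, 2 and 3. Every itaconate library was above every NaCl library, and the rise was 1.86-fold (95% interval 1.59 to 2.18, adjusted p = 5.05e-05, limma). E2f1 (chr2:154559407-154569892), which also links the cycle to cell death, was at 614, 629 and 852 with itaconate and at 662, 890.0 and 1018 with NaCl. The groups overlapped, since itaconate replicate 3 lay between NaCl replicates 1 and 2, and the log2 fold change of −0.29 ± 0.17 (SE) did not pass (limma adjusted p = 0.204, range over alternatives 0.0446 to 0.561). E2f1 passed without itaconate replicate 3 (log2 fold change −0.44, adjusted p = 0.0472) and without NaCl replicate 1 (−0.46, adjusted p = 0.0446).

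E2f3 (chr13:29906575-29986063), the third activator, had values of 499, 612 and 652 with itaconate and 783, 700.2 and 674 with NaCl. All itaconate values were below all NaCl values, but the nearest libraries differed little, and the change of −0.30 ± 0.13 on the log2 scale did not pass after adjustment (limma adjusted p = 0.0935, range over alternatives 0.0459 to 0.315). Without itaconate replicate 3, the library nearest to the controls, it passed (−0.38, adjusted p = 0.0459). So of the 3 activators 1 rose, 0 fell and 2 did not pass, with a median log2 fold change of −0.29, against a median of all tested genes near 0.

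Among the repressors, the pocket protein partner and the atypical pair went in opposite directions. E2f4 (chr8:105297663-105305370) encodes the E2F that occupies target promoters with pocket proteins in resting cells. Its transcript was at 2471, 2178 and 2661 with itaconate and 3494, 3194 and 3361 with NaCl. No library of one group reached the other, and E2f4 fell by 0.46 ± 0.09 on the log2 scale (95% interval −0.67 to −0.26, adjusted p = 0.00236, limma). It was the only one of the 10 called lower. E2f6 (chr12:16810963-16839742), a repressor that works with Polycomb proteins, was at 609.8, 677 and 555 with itaconate and 527, 595 and 601 with NaCl. Its groups overlapped, and its level with itaconate was 1.07 of that with NaCl, with a 95% interval of 0.886 to 1.29 (limma adjusted p = 0.589).

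The atypical repressors both rose. E2f7 (chr10:110745439-110787384) was at 319.9, 351 and 348 with itaconate and at 204, 119.5 and 189 with NaCl, a 2.03-fold rise (95% interval 1.50 to 2.76, adjusted p = 0.00194, limma). The itaconate values lay close together, and the NaCl values were spread, with replicate 2 the lowest. E2f8 (chr7:48866429-48881596) was at 1169, 1125 and 961 with itaconate and at 665, 645 and 679.9 with NaCl, a 1.63-fold rise (95% interval 1.38 to 1.93, adjusted p = 4.17e-04). Here the NaCl values were tight (SD 17.5, n = 3), and all 3 itaconate libraries stood clear of them. The 4 repressors thus gave 2 rises, 1 fall and 1 that did not pass, with a median log2 fold change of 0.40.

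**Figure D2:**
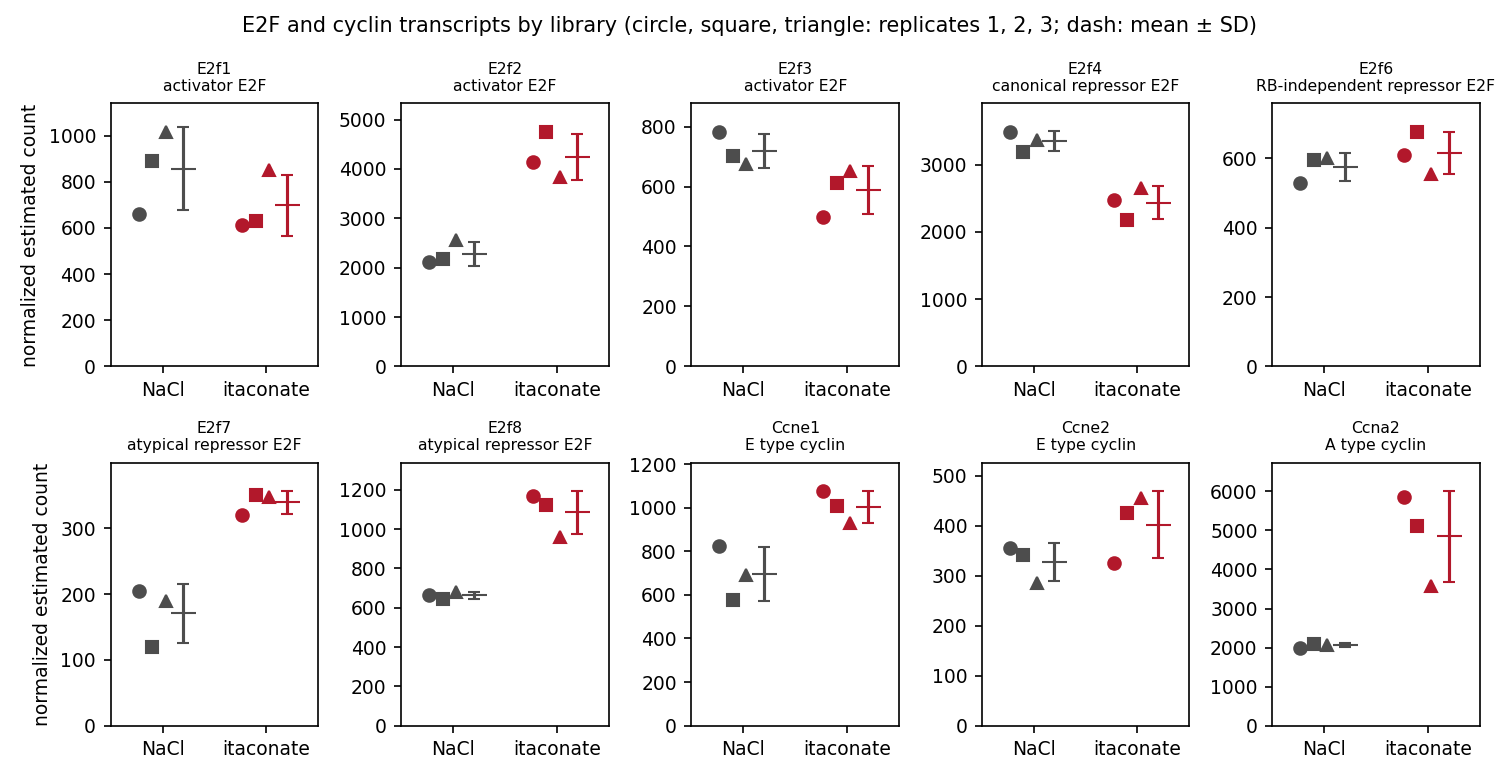
Normalized estimated counts (y axis, from 0) of the 10 transcripts are plotted for each library, with circles, squares and triangles for replicates 1, 2 and 3 and a dash with bars for the mean ± SD (n = 3). The groups are apart for E2f2, E2f3, E2f4, E2f7, E2f8, Ccne1 and Ccna2, and Ccna2 spreads from 3579 to 5868 among the itaconate libraries.

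The balance of activators and repressors was read differently depending on how the genes were weighed. On the log2 scale, where each gene counts equally, the mean of the 3 activators exceeded that of the 4 repressors by 0.47 ± 0.15 (SD, n = 3) with itaconate and 0.71 ± 0.15 with NaCl, values on the log2(value + 1) scale that are not corrected for length. Per library these differences were 0.32, 0.49 and 0.62 with itaconate and 0.54, 0.84 and 0.75 with NaCl, so the groups overlapped. When the values were divided by the length of the annotated exons and summed, so that abundant genes weigh more, the activators made up 45.3%, 50.7% and 45.7% of the transcript of these 7 E2F genes with itaconate. With NaCl they made up 32.1%, 35.8% and 37.4%. The sums went the other way from the log2 means and did not overlap, and with the longest transcript as the length the shares were 41.5% ± 2.63 and 30.9% ± 2.54 (SD, n = 3). E2f2 alone went from 17.6%, 18.6% and 20.2% of this pool with NaCl to 33.9%, 38.4% and 30.6% with itaconate. E2f4 went from 58.2%, 54.4% and 52.9% to 40.3%, 35.0% and 42.1%. No test was run on these summaries; the shares were computed after the values had been seen.

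**Figure D3:**
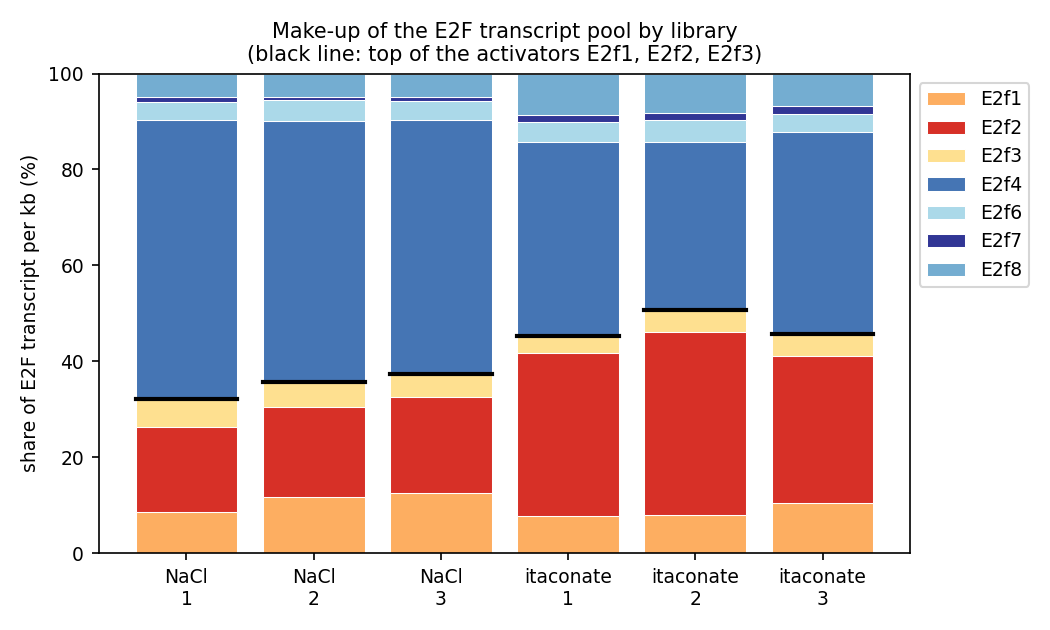
Each bar is 1 library, divided into the shares (%) of the 7 E2F genes in their summed normalized estimated count per kb of exon, with a black line at the top of the activators E2f1, E2f2 and E2f3. The line lies at 32.1% to 37.4% in the NaCl libraries and at 45.3% to 50.7% in the itaconate libraries, where the E2f2 segment is larger and the E2f4 segment smaller.

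Of the cyclin genes, Ccne1 and Ccna2 rose and Ccne2 did not pass. Ccne1 (chr7:38097984-38107534) was at 1076, 1006 and 929 with itaconate and at 825, 577 and 689.9 with NaCl, a 1.45-fold rise (95% interval 1.19 to 1.78, adjusted p = 0.00777, limma). The lowest itaconate library was above the highest NaCl library. Ccne2 (chr4:11191351-11204779), the other E type cyclin, was at 326, 425 and 456 with itaconate and at 356, 341 and 285 with NaCl. Itaconate replicate 1 lay among the controls, and the log2 fold change of 0.29 ± 0.16 (95% interval −0.06 to 0.64) did not pass (limma adjusted p = 0.189, range over alternatives 0.0605 to 0.458). Ccne2 shares 17.4% of its exon bases with Ints8 on the opposite strand, and the strand setting of the counting is not given in the sources used here.

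Ccna2 (chr3:36564865-36572150) was at 5868, 5101 and 3579 with itaconate and at 1995, 2095 and 2074 with NaCl. The NaCl values were nearly equal, and the lowest itaconate library, replicate 3, was still well above them. The rise of 1.21 ± 0.14 on the log2 scale was 2.31-fold (95% interval 1.86 to 2.87, adjusted p = 5.54e-05, limma). On the opposite strand, Exosc9 shares 12.5% of the exon bases of Ccna2, and its own log2 fold change was 0.11 ± 0.12. Ccna1, the germ line A type cyclin, was at 0 in all 6 libraries.

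The ratio of A to E type cyclin transcript was compared within each library. The log2 ratio of Ccna2 to Ccne1 was 2.45, 2.34 and 1.94 with itaconate and 1.27, 1.86 and 1.59 with NaCl. The log2 ratio of Ccna2 to Ccne2 was 4.16, 3.58 and 2.97 with itaconate and 2.48, 2.61 and 2.86 with NaCl. In both ratios every itaconate library was above every NaCl library, by a mean of 0.67 and 0.92, but 3 against 3 libraries cannot give a two-sided p below 0.1 in the exact permutation test, which is the value both ratios had (0.1 also when adjusted over the 2).

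Per kb of annotated exon, the order of levels changed at the top. With NaCl, E2f4 was highest at 1366 ± 61.2 per kb (SD, n = 3), followed by Ccna2 at 503 ± 12.9, E2f2 at 467 ± 48.6, E2f1 at 272 ± 57.1 and Ccne1 at 262 ± 46.7. E2f3 (132 ± 10.5), E2f8 (122 ± 3.22), E2f6 (101 ± 7.21) and Ccne2 (93.7 ± 10.8) were lower, and E2f7 was lowest at 19.0 ± 5.00 per kb. Of these neighbours, the ranges overlapped for Ccna2 and E2f2, E2f1 and Ccne1, E2f3 and E2f8, and E2f6 and Ccne2. With itaconate, Ccna2 was first at 1188 ± 285 per kb, then E2f4 at 994 ± 99.2 and E2f2 at 869 ± 95.7, and each of these 3 overlapped its neighbour. Ccne1 (377 ± 27.6) stood alone, above E2f1 (221 ± 42.2) and E2f8 (199 ± 20.2), which overlapped. Ccne2 (115 ± 19.3), E2f6 (108 ± 10.7) and E2f3 (108 ± 14.7) overlapped too, and E2f7 was again lowest at 37.7 ± 1.91 per kb. With the longest transcript as the length, E2f4, Ccna2 and E2f2 were still the top 3 in both groups and E2f7 the lowest, but E2f6 moved from 8 to 6 in the order with NaCl.

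The libraries of the itaconate group were not alike. In replicate 3, Ccna2 was 0.80 above the NaCl mean on the log2 scale, against 1.51 and 1.31 in replicates 1 and 2, and E2f8 was at 0.53 against 0.82 and 0.76. The same replicate had the highest E2f1, E2f3, E2f4 and Ccne2 of its group and the lowest E2f2, E2f6, E2f8, Ccne1 and Ccna2. The median of 26 genes of G2 and M phase was at 1.37, 1.10 and 0.62 in itaconate replicates 1, 2 and 3, so the library with the smallest Ccna2 rise also had the smallest G2 and M phase rise. The median of 39 replication genes regulated by E2F was at 0.33, 0.32 and 0.29, with little difference between the libraries. Without itaconate replicate 3 the rise of Ccna2 was 1.41 on the log2 scale, and 5 of the 10 genes were called higher and 3 lower, E2f1, E2f3 and E2f4; without NaCl replicate 1, 2 were called lower, E2f1 and E2f4.

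**Figure D4:**
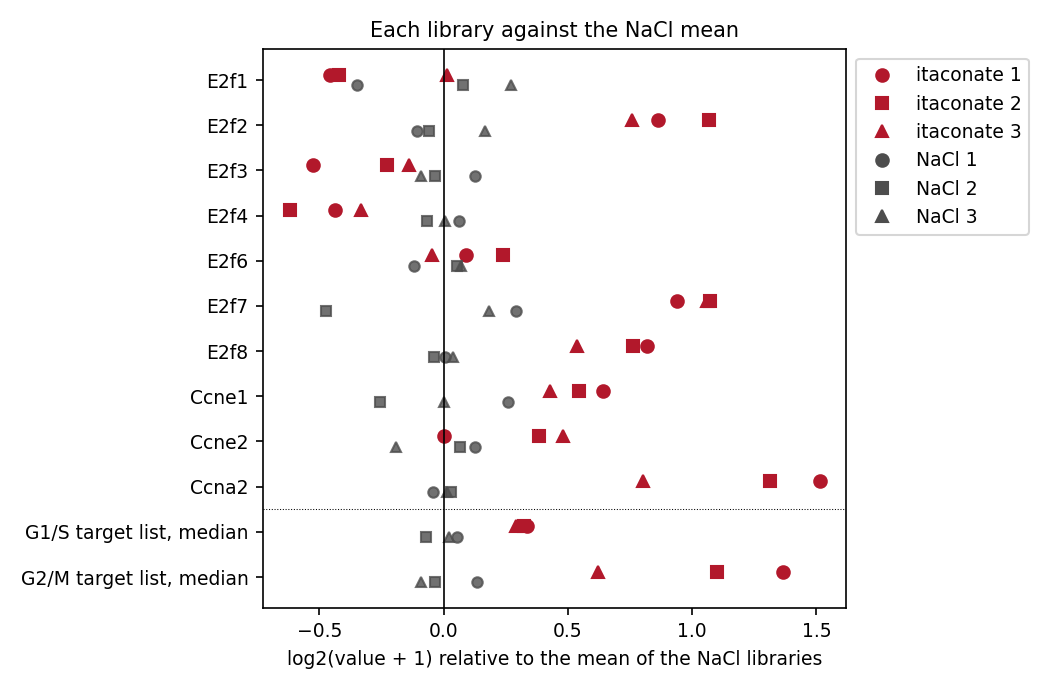
For each transcript and for the medians of the G1/S and G2/M target lists, the log2(value + 1) of each library is plotted relative to the mean of the NaCl libraries (x axis), with itaconate in red and NaCl in grey. Itaconate replicate 3 (red triangle) is the lowest of its group for Ccna2 (0.80) and the G2/M list (0.62), while the G1/S list lies between 0.29 and 0.33 in all 3 itaconate libraries.

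Transcripts of the proteins that E2F works with rose or did not pass. Of 12 genes of dimer partners, pocket proteins and the MuvB complex with its partners, 8 were called higher and 0 lower (18.2% and 17.8% of all tested genes), with a median log2 fold change of 0.38. All 3 pocket protein genes rose: Rb1, which restrains the activators, by 0.57 ± 0.10 (SE), Rbl2 (p130) by 0.53 ± 0.12 and Rbl1 (p107) by 0.30 ± 0.10 on the log2 scale. The dimer partner gene Tfdp1 rose by 0.30 ± 0.09, while Tfdp2 was at 0.09 ± 0.10 (limma adjusted p = 0.526). Foxm1, the factor that activates G2 and M phase genes, rose by 1.02 ± 0.10, Mybl2 (B-MYB) by 0.66 ± 0.12 and the MuvB subunit gene Lin9 by 0.46 ± 0.14. Lin52 also passed (0.59 ± 0.21), and Lin37, Lin54 and Rbbp4 did not; these 4 were named after their values had been seen. The count of rises fell to 5 without itaconate replicate 1 or 2 and to 4 without NaCl replicate 3. This list and those below were chosen with earlier results of these data known, so their counts are not an independent test.

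Of 22 partners and regulators of the cyclin-dependent kinases, 14 were called higher, where 18.2% of all tested genes were, and 3 lower, where 17.8% were, with a median log2 fold change of 0.43. The share called lower is near that of all tested genes. Cdk2, the kinase of cyclin E and A, rose by 0.41 ± 0.08 on the log2 scale. Other genes of this list rose too, among them the phosphatase genes Cdc25c by 1.44 ± 0.19 and Cdc25b by 1.05 ± 0.11. The inhibitory kinase gene Wee1 rose by 1.06 ± 0.17 and Ccnf (cyclin F) by 1.36 ± 0.13. Fbxo5, which encodes the APC/C inhibitor EMI1 that protects cyclin A, rose by 0.64 ± 0.10. The genes that fell were those of the D cyclin kinases, Cdk6 (−0.96 ± 0.08) and Cdk4 (−0.55 ± 0.09, named after its value had been seen), and the inhibitor p21, Cdkn1a (−0.33 ± 0.11). Of the related inhibitor genes, Cdkn1b (p27) rose by 0.48 ± 0.11, and Cdkn1c (p57), at 0.59 ± 0.37, did not pass (limma adjusted p = 0.244; named after its value had been seen).

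Among the other genes of these families, Ccnb1 and Ccnb2 of mitosis rose by 0.89 ± 0.21 and 1.00 ± 0.17 on the log2 scale, and Ccnd2, a D type cyclin of G1, changed by −0.57 ± 0.08. Of the 6 tested, 2 were called higher (18.2% of all tested genes) and 1 lower (17.8%), and the share called lower is near that of all tested genes. E2f5, the other pocket protein repressor, had a mean of 136 with itaconate and 102 with NaCl, and its change of 0.39 ± 0.23 did not pass (limma adjusted p = 0.214). Ccnd3 (−0.14 ± 0.09) and Ccnd1 (−0.09 ± 0.74, with means of 14.0 and 11.8) did not pass either. These 3 were named after their values had been seen.

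Many targets of E2F in G1/S and every listed target of MuvB in G2/M were called higher. Of 39 G1/S targets 23 were called higher and 0 lower, where 18.2% and 17.8% of all tested genes were, with a median log2 fold change of 0.36. The smallest p-values were those of the repair gene Brca1 (0.92 ± 0.09), the checkpoint gene Clspn (0.69 ± 0.09), the helicase gene Mcm4 (0.58 ± 0.08) and the licensing gene Cdt1 (0.64 ± 0.09). The count fell to 15 without itaconate replicate 2 and to 14 without NaCl replicate 2. Of the 26 G2/M targets 26 were called higher, against the same 18.2%, with a median of 1.04, and the smallest p-values were those of Kif11, Birc5, Top2a and Aurkb (1.24 ± 0.10, 1.10 ± 0.11, 0.95 ± 0.10 and 1.00 ± 0.11). Both target lists were chosen with earlier results of these data known, so their counts beside all tested genes are not an independent test. The difference between the lists was not tested, and the G2/M list shares Ccnb1, Ccnb2, Cdk1 and Cdc20 with the lists above. The change of Ccna2, 1.21, lies above the median of the G2/M list, and that of Ccne1, 0.54, above the median of the G1/S list. The change of Ccne2, 0.29, which did not pass, lies below the G1/S median.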

How the data were processed

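RNA was sequenced from 6 libraries, 3 per treatment, assigned by title, and the table's columns by treatment code and replicate number. The authors deposited 1 table of estimated counts, normalized per library, a signal of 0 or more for each symbol. The submitters' processing notes name STAR 2.7.0f, RSEM 1.3.0 and mm10. No annotation, size factor tool or strand setting is given in the sources used here. Values are multiples of a hundredth of a read divided by a size factor, and 79.9% to 82.1% were whole reads (within 0.02 reads), so no count model was used. A shift common to most genes cannot be detected in such values.

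The 13180 of 55401 entries whose mean reached 10 were tested two-sided on log2(value + 1). The fit was limma (version 3.58.1, R 4.3.3) with an intensity trend, and the Benjamini-Hochberg threshold was 0.05 across those entries. Fold changes are on the log2(value + 1) scale. Replicates differed by more than sampling noise (chi-square of estimated reads over its degrees of freedom, 12.1 to 23.8), so none was a copy of another. Positions and exon lengths come from GENCODE M21 (GRCm38, the build of mm10), promoters from RefSeq. The fit was tested on simulated data. It recovered 51.6% of 64 genes changed 1.5-fold, 71.6% of 67 changed 2-fold and 87.9% of 66 changed 4-fold. Of 12766 unchanged genes it called 0.0783%. Changes under 1.5-fold were not simulated, and far fewer genes were changed there than were called here. Genes of similar level were simulated with a common spread, so differences in spread between such genes were not part of this check.

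The members and lists were chosen with earlier results of these data known. Named genes are the 10 members, up to 6 genes that passed in each list of partners, relatives and CDK regulators plus the pocket proteins, dimer partners, Cdk2, Cdkn1a and Cdkn1b, and the 4 smallest p-values per direction of each target list. Alternatives were the pseudocount (0.1, 10), the filter (none, 100), median-ratio, TMM and quantile scaling, the replicate block, the variance model, each library left out and the length definition. Of the marker lists of other cell types, 1 is not reported here.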

Additional observations from a re-analysis of the deposited data

How the results depend on the processing

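E2f2, E2f7, E2f8, Ccne1 and Ccna2 remained called higher and E2f4 lower under each of the 16 alternatives, and E2f6 and Ccne2 passed under none. Ccne1 came close to the threshold, with an adjusted p of 0.0486 in limma without the intensity trend. In that setting E2f4 was at 0.0278 and E2f7 at 0.0214. No value changed sign. With the replicate number as a block, 2 of the 10 genes were called lower, E2f1 joining E2f4 (adjusted p = 0.0464), and 5636 genes in place of 4741 were called in all. The labels tie the numbers to no mouse or day, and the deviations of same-numbered libraries from their group means correlated at 0.146, 0.0383 and 0.128; each library correlated best with its own number in the other group, a hint from the data only. With limma without the intensity trend, 5 partner genes, 1 other family member and 15 G1/S targets were called higher. That setting also called 23 G2/M targets and 10 CDK partners and regulators higher, and 2 CDK partners and regulators lower. The cause was not tested. With 1 library left out, and so fewer samples in each fit, the members called lower ranged from 1 to 3. The counts called higher ranged from 4 to 8 for partners and from 14 to 22 for G1/S targets. For CDK partners and regulators they ranged from 11 to 15 and for G2/M targets from 25 to 26. The G1/S median ranged from 0.29 to 0.39. The length definition moved 13 of the 20 levels per kb by more than 1 SD. With 3 libraries a group the intervals are wide: for E2f1, which did not pass, the 95% interval of the log2 fold change ran from −0.65 to 0.08.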

Other observations

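In the promoter windows of the target lists, the motifs differed between the lists. An E2F spelling was found for 15 of the 32 G1/S targets with a window (40.5% of 37 windows) and for 1 of the 23 G2/M targets with one (4% of 25 windows), beside 4.05% of the 12458 windows of tested genes. A TTTGAA was found for 4 of the G1/S targets (10.8% of windows) and 17 of the G2/M targets (76% of windows), beside 12.2% of the windows of tested genes. Both target lists were drawn up from knowledge of E2F and MuvB regulation and with earlier results of these data known. These shares therefore describe the lists and are not independent of how they were chosen.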
